A study of Mus musculus with 60 samples.

Results

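The 10 genes followed here code for secreted proteins that start or restrain Wnt signaling in fibroblasts: 6 Wnt ligands (Wnt2, Wnt4, Wnt5a, Wnt5b, Wnt10a and Wnt10b) and 4 secreted antagonists (Dkk2, Dkk3, Sfrp1 and Sfrp2). They are the rows of the 2 deposited count tables whose gene identifier maps to these symbols, 10 of 56236 genes found in the annotation, and the rule uses no measured value. All 10 passed the expression filter in both tables. The data are 60 RNA-seq libraries of mouse fibroblasts, with 3 in each of 20 groups. In the reprogramming table (36 libraries, 12 groups), tail tip fibroblasts of 2 lines that carry inducible OSKM (Oct4, Sox2, Klf4 and Myc) were taken before (day 0) and 2 and 4 days into induction with doxycycline at 2 µg/ml. Parallel cultures also had VC (ascorbic acid at 50 µg/ml and the GSK3 inhibitor CHIR99021 at 3 µM). The D/KO line is labelled 4FJ_ERCC1_(d/-), from a male of 8 weeks, and the line used as WT is labelled 4FJ_(+/-)_OCT4-GFP, from a female of 22 weeks, so genotype, sex, age and line change together. The D/KO line carries the Col1a1-tetO-OKSM transgene and the M2-rtTA driver at ROSA26, which is not restricted to a cell type. For the WT line the methods name an OKSM cassette at Col1a1 and an Oct4 reporter, but no rtTA allele. The methods also name a WT line with rtTA from an 8-week-old male, the sex and age of the D/KO line, and the grouping here follows the labels. The day 0+VC groups had VC without doxycycline. In the inhibitor table (24 libraries, 8 groups), ERCC1_(d/-) tail tip fibroblasts, whose label names no reprogramming transgene, from a female of 4 weeks, were left as controls or exposed for 3 days to an inhibitor of TGFb family receptors. Repsox and Vactosertib, at 0.1 µM, act on the TGFb receptor ALK5, as does A83-01, at 1 µM, while DMH-1, at 1 µM, acts on the BMP receptor ALK2. The study's text describes Vactosertib as acting on ALK2 as well. The same table holds control fibroblasts of tail tip and of skin labelled ERCC1_(+/+)_WT, from a female of 14 weeks, and tail tip fibroblasts labelled 4FJ_(+/-)_OCT4-GFP with the treatment TGFB, for which the labels give no dose or time and do not say whether the ligand or an inhibitor of it was added. The labels do not say whether the 3 libraries of a group came from separate animals or cultures, so p-values measure the spread between these libraries, which may be technical.

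Wnt proteins are lipid-modified ligands that bind Frizzled receptors. With the co-receptors Lrp5 or Lrp6 they stabilize beta-catenin, which switches on TCF/LEF targets, and with Ror or Ryk receptors they act without beta-catenin. Sfrp proteins carry a Frizzled-like domain and bind Wnt ligands outside the cell, while Dkk proteins bind Lrp co-receptors or, in the case of Dkk3, act by a route that is less clear. CHIR99021 activates the pathway below the receptors, and TGFb signaling and Wnt signaling meet in the dermis, where fibroblasts are a main source of these secreted proteins.

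Each reprogramming library held 16538374 to 18484951 counts, and each inhibitor library 17102639 to 30599138. Levels are given as CPM, the count relative to library size, scaled by TMM, and levels compared between genes as TPM, which also divides by gene length. A gene was called when its Benjamini-Hochberg adjusted p in edgeR's two-sided quasi-likelihood test was under 0.05. Ercc1, the gene altered in D/KO, ranged from 8.04 to 18.6 CPM among 18 D/KO reprogramming libraries and from 16.9 to 29.1 among the 18 WT ones. For the inhibitor libraries its ranges were 13.2 to 23.5 and 13.3 to 47.8, so D/KO and WT overlapped in both tables. All 10 fibroblast markers had a mean of at least 1 CPM in every group. These are bulk samples, so fewer cells of a type and less RNA per cell cannot be told apart.

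Promoter sequences, from RefSeq on GRCm38.p6 (250 bases before to 50 bases after the start), were held by the table used here for 6 of the 10 genes: Wnt2, Wnt4, Wnt5b, Wnt10b, Dkk2 and Sfrp2. Wnt5a, Wnt10a, Dkk3 and Sfrp1 have no entry. Those of Sfrp2 (chr3:83766071-83766370, + strand), Wnt2 (chr6:18030396-18030695, - strand), Wnt4 (chr4:137277385-137277684, + strand) and Dkk2 (chr3:132085042-132085341, + strand) are shown because these members rose together with the ALK5 inhibitor A83-01. Sfrp1 rose with A83-01 as well but, as said, has no entry. Capitals mark matches, on either strand, to the octamer ATGCAAAT, which POU factors such as Oct4 bind, the Smad element CAGACA, the TCF/LEF core CTTTGA and the GC box GGGCGG. Matches that overlap run together.
Sfrp2: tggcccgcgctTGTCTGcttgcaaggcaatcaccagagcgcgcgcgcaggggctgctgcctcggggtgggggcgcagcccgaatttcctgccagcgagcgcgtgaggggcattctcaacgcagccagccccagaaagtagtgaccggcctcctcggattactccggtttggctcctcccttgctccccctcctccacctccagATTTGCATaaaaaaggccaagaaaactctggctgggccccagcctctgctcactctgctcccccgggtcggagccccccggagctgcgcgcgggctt
Wnt2: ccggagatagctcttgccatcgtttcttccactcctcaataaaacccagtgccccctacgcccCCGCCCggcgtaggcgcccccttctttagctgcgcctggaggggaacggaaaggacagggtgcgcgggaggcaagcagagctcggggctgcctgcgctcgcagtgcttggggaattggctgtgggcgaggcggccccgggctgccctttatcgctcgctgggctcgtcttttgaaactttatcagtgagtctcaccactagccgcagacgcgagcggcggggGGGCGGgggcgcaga
Wnt4: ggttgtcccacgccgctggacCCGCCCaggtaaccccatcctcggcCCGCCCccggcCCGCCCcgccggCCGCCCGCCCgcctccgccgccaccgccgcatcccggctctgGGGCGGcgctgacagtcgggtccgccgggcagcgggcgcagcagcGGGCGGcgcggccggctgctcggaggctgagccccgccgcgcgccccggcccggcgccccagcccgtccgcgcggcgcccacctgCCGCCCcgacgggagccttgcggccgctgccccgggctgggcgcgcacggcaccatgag
Dkk2: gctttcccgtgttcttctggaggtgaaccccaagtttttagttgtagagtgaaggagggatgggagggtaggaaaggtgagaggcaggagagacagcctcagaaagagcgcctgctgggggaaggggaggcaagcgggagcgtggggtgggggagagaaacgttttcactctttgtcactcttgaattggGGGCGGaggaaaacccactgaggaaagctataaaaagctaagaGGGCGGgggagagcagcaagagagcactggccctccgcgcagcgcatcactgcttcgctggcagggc

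The Sfrp2 promoter held an octamer 47 bases before the start and a Smad element 239 bases before it, both on the other strand, and no GC box. Of 32851 promoters of the same length, 1.74% held the octamer, 21.0% the Smad element, 16.0% the TCF/LEF core and 35.7% the GC box. Wnt4 held 8 GC boxes, Wnt2 and Dkk2 held 2 each, and none of these 3 held another of the motifs. The TCF/LEF core was absent from the 4 sequences shown. A match describes letters in this window only.

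Per length, the antagonists stood above the ligands in every group. At day 0 in D/KO cells the 6 ligands summed to 174 ± 5.21 TPM (SD, n = 3) and the 4 antagonists to 1005 ± 133 TPM, and in WT cells at day 0 to 178 ± 4.14 and 1853 ± 70.2. Dkk2 had the highest TPM of the 10 members in all 12 groups of the time course. It stood beside Dkk3 at 519 ± 89.8 and 391 ± 16.9 TPM in D/KO cells at day 0, where Sfrp1 was at 45.4 ± 8.95 and Sfrp2 at 48.9 ± 24.6. Wnt5a was the leading ligand, with 75.8% to 80.1% of the ligand TPM in those libraries. Wnt4 followed at 23.9 ± 2.202 TPM, and Wnt2, Wnt5b, Wnt10a and Wnt10b were each under 10 TPM. The ratio of antagonist to ligand TPM ran over group means from 4.01 ± 0.456 in WT day 0+VC cells to 10.5 ± 0.345 in WT day 4 cells, and from 2.13 ± 0.0502 in the TGFB-labelled cells to 25.4 ± 2.15 in WT controls of the inhibitor table. In the inhibitor table the highest level was taken by Dkk2 in D/KO controls, by Sfrp2 with Repsox, Vactosertib and A83-01, by Dkk3 with DMH-1 and in the TGFB-labelled cells, and by Sfrp1 in both WT control groups. As the plot of summed levels shows, ligand means there ran from 72.6 ± 20.1 TPM in WT skin to 221 ± 7.05 in the TGFB-labelled cells, and antagonist means from 471 ± 21.7 in the latter to 2699 ± 630 in WT tail tip controls.

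**Figure D1:**
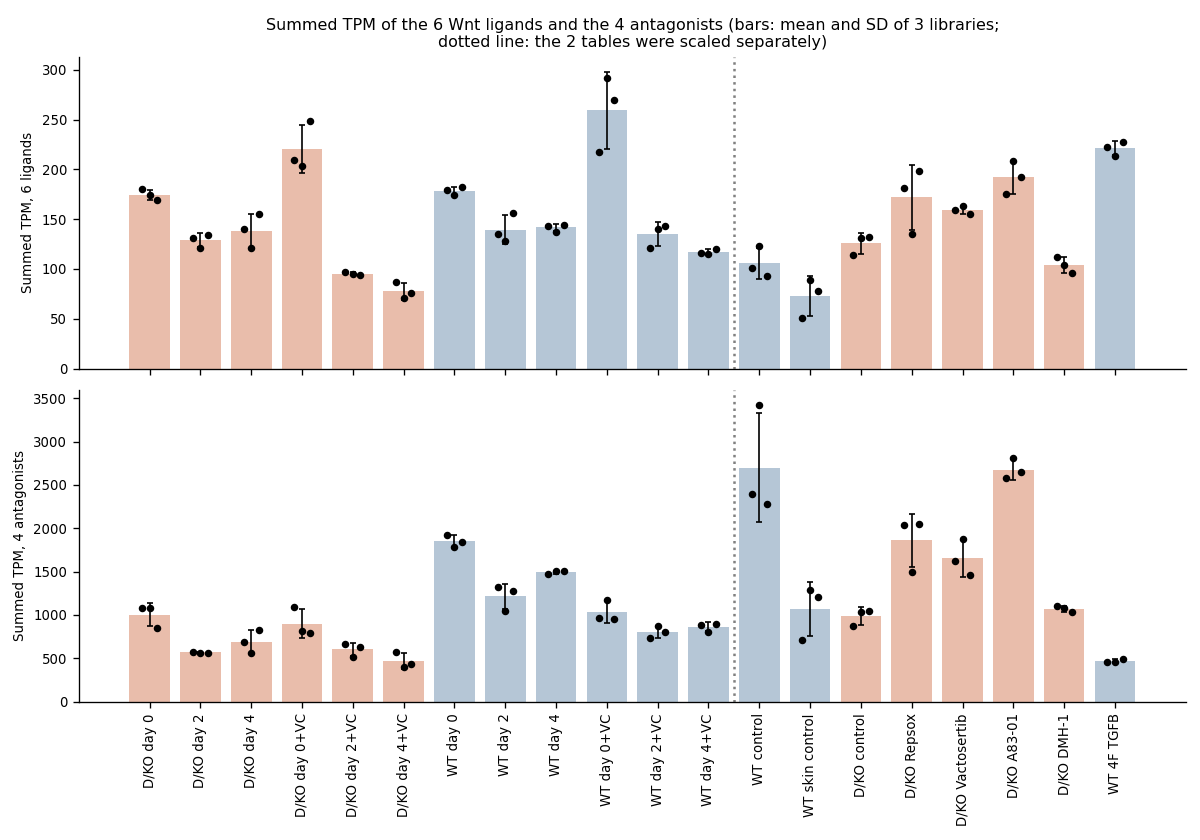
Summed TPM of the 6 ligands (top) and the 4 antagonists (bottom) in each of the 20 groups; bars are means, whiskers SD and points the 3 libraries, with D/KO in red and WT in blue. Ligands peak at day 0+VC in each line of the time course (220.2 TPM in D/KO and 259.4 in WT), and antagonists are highest in WT control (2699 TPM) and A83-01 (2679 TPM).

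Each member had its own order of levels over the 12 groups of the time course. Wnt2 ran from 17.7 ± 2.3004 CPM (SD) in D/KO day 4 cells to 0.577 ± 0.427 in D/KO day 0+VC cells, and Sfrp2 from 124 ± 28.1 in WT day 0 cells to 2.33 ± 0.969 in D/KO day 4+VC cells. Wnt5a and Wnt5b were both highest in WT day 0+VC, then D/KO day 0+VC cells, and lowest in D/KO day 4+VC cells. Dkk2 and Dkk3 were both highest in WT day 0 and lowest in D/KO day 2 or day 2+VC cells. Of the 11 pairs of neighbouring groups in each order, the libraries overlapped in 4 for Dkk3, 7 for Wnt5a, Sfrp1 and Sfrp2, 8 for Dkk2, 9 for Wnt2, Wnt4, Wnt5b and Wnt10a, and all 11 for Wnt10b. In the inhibitor table, of 7 pairs, they overlapped in 1 for Sfrp2, 2 for Dkk2, 3 for Wnt2 and Sfrp1, 4 for Wnt5b, 5 for Wnt4, Wnt10b and Dkk3, 6 for Wnt5a and all 7 for Wnt10a.

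During reprogramming of D/KO cells, 1 ligand rose strongly while most other members fell. With doxycycline alone, 2 members rose and 7 fell at day 2 against day 0, when 27.4% of all 15832 genes tested were called, and 2 rose and 6 fell at day 4, against 37.0%. The day 2 calls of Wnt4 and Wnt10a each ended in 3 of 6 fits that left out 1 library (adjusted p up to 0.141 and 0.177). That of Wnt5b ended in 1 of 6 (adjusted p = 0.0572). With VC, taken against day 0+VC, 1 rose and 7 fell at both days, against 47.4% at day 2 and 54.1% at day 4. The median log2 fold change of the 10 members at day 4 was -0.69 without VC and -1.94 with VC, while that of all genes was 7.62e-05 and 0.01.

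Wnt2 (ENSMUSG00000010797, chr6:17988939-18030584, - strand, GRCm39 as are all gene positions here), a ligand known to signal through beta-catenin, was the only member called higher at both days in both D/KO arms. Its 3 libraries stood at 2.51, 2.23 and 0.707 CPM at day 0, at 10.7, 12.5 and 8.94 at day 2 and at 18.9, 19.1 and 14.999 at day 4. No day 0 library reached a later one, and the increase at day 4 was 9.74-fold (log2 fold change 3.28 ± 0.31, adjusted p = 7.24e-11). With VC the start was lower, at 0.453, 0.226 and 1.05 CPM, and the level was 6.83, 10.5 and 7.28 at day 2 and 6.24, 7.97 and 5.21 at day 4. That was 11.01-fold over day 0+VC (log2 fold change 3.46 ± 0.39, adjusted p = 2.16e-09), and without the day 0+VC library 3 the log2 fold change was 4.19, adjusted p = 4.97e-09. In WT cells without VC Wnt2 was already at 9.45, 13.4 and 10.2 CPM and was not called at day 2 (log2 fold change -0.23 ± 0.27, adjusted p = 0.676) or day 4 (log2 fold change -0.43 ± 0.27, adjusted p = 0.258). In WT cells with VC it rose from 1.07, 0.922 and 0.531 CPM to 2.96, 1.48 and 2.21 at day 4 (log2 fold change 1.38 ± 0.40, adjusted p = 0.00505). Against WT day 0 without VC the day 4+VC level was lower, by a log2 fold change of -2.32. The WT increase at day 2 with VC (log2 fold change 1.16 ± 0.41, adjusted p = 0.0309) was not called without any 1 of 4 libraries (WT day 0+VC libraries 2 and 3, WT day 2+VC libraries 2 and 3), with an adjusted p of up to 0.197, and turned to -2.53 against WT day 0 without VC.

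Wnt5a (ENSMUSG00000021994, chr14:28226707-28249405, + strand), the ligand known for signaling through Ror2 without beta-catenin, was lower at day 4 in all 4 arms. The D/KO libraries were at 286, 290 and 296 CPM at day 0 and 153, 123 and 142 at day 4 (log2 fold change -1.06 ± 0.10, adjusted p = 1.48e-10). With VC they went from 393, 442 and 489 to 120, 103 and 109 CPM, a 3.99-fold decrease (log2 fold change -1.996 ± 0.11, adjusted p = 7.54e-18). The groups did not overlap in either arm. The WT decreases at day 4 were -0.65 ± 0.10 without VC and -1.51 ± 0.11 with VC on the log2 scale (adjusted p = 8.15e-06 and 2.88e-14). Wnt5a shares 358 bases, 4.6% of its length, with the antisense lncRNA Gm2670, whose count was at most 1.32% of that of Wnt5a in any library, and whether counting used strand is not stated.

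Wnt5b (ENSMUSG00000030170, chr6:119409492-119521308, - strand), the close relative of Wnt5a, also fell in D/KO cells, from 6.71, 3.46 and 6.84 CPM at day 0 to 2.33, 2.61 and 2.75 at day 4 (log2 fold change -1.14 ± 0.24, adjusted p = 0.000241). With VC it fell from 11.1, 15.1 and 11.2 to 2.48, 1.62 and 1.32 CPM (log2 fold change -2.78 ± 0.25, adjusted p = 6.16e-12). In WT cells it fell with VC (log2 fold change -1.38 ± 0.22, adjusted p = 3.52e-06) and was not called without it (log2 fold change -0.43 ± 0.23, adjusted p = 0.182). Against WT day 0 without VC, the log2 fold change of Wnt5b at day 4+VC was 0.035.

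Wnt10a (ENSMUSG00000026167, chr1:74830675-74843338, + strand), a ligand known from skin and hair follicle, is a low-count gene and fell in D/KO cells with VC. The day 0+VC libraries held 16, 30 and 36 counts and the day 4+VC libraries 0, 1 and 2, a ratio of 0.0282 with a 95% counting interval of 0.00569 to 0.0852 (exact, counting error only; log2 fold change -4.99 ± 0.82, adjusted p = 3.26e-06). Without the day 4+VC library 3 the fitted value was -5.81, adjusted p = 2.5e-05. Without VC the D/KO libraries held 15, 3 and 8 counts at day 0 and 2, 0 and 3 at day 4, a ratio of 0.17 with an interval of 0.0509 to 0.449 (log2 fold change -2.48 ± 0.87, adjusted p = 0.0232). That call ended without the day 0 library 1 (-1.78, adjusted p = 0.183), the day 4 library 1 (-2.63, adjusted p = 0.0502) or the day 4 library 2 (-1.92, adjusted p = 0.107), and the value was -3.15, adjusted p = 0.0231 without the day 4 library 3. In WT cells Wnt10a fell with VC at day 4 (log2 fold change -2.51 ± 0.55, adjusted p = 0.000295), with a fitted value of -3.57, adjusted p = 5.13e-05 without the day 4+VC library 3.

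Wnt4 (ENSMUSG00000036856, chr4:137004800-137027037, + strand), a ligand known from kidney and reproductive tract development, moved in the other direction in the arms without VC. In WT cells its libraries were at 17.8, 18.6 and 15.7 CPM at day 0, 31.03, 47.2 and 31.7 at day 2 and 32.6, 27.8 and 29.98 at day 4, and all later libraries were above all day 0 libraries (log2 fold change 0.79 ± 0.17, adjusted p = 0.000717). The D/KO change was smaller, from 29.5, 26.04 and 25.99 to 34.03, 35.1 and 43.8 CPM (log2 fold change 0.47 ± 0.17, adjusted p = 0.0282), and was not called without the day 4 library 3 (0.35, adjusted p = 0.148) or without the day 0 library 2 or 3 (adjusted p = 0.0829 and 0.082). With VC, Wnt4 at day 2 was lower than at day 0+VC in D/KO cells (log2 fold change -0.60 ± 0.19, adjusted p = 0.00887) and higher in WT cells (log2 fold change 1.04 ± 0.19, adjusted p = 3.52e-05), where against WT day 0 without VC it was not called (0.089 ± 0.18, adjusted p = 0.733). The D/KO call ended without the day 0+VC library 3 (-0.49, adjusted p = 0.0604) or the day 2+VC library 1 (-0.49, adjusted p = 0.0641). With VC at day 4, the log2 fold change of Wnt4 was not called and had a 95% interval of -0.37 to 0.38 in D/KO cells and of -0.36 to 0.42 in WT cells.

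Wnt10b (ENSMUSG00000022996, chr15:98668593-98676031, - strand), a ligand known to hold back fat cell formation, was not called in D/KO cells at day 2 or 4 against the day 0 group of the same arm, with log2 fold changes at day 4 of -0.42 ± 0.40 without VC and 0.054 ± 0.52 with VC. In WT cells with VC it rose from 2, 8 and 3 counts per library at day 0+VC to 16, 49 and 32 at day 4 (log2 fold change 2.67 ± 0.51, adjusted p = 4.96e-05). Without the day 0+VC library 2, which held the 8 counts, the log2 fold change was 3.40, adjusted p = 4.5e-05. Against WT day 0 without VC the day 4+VC level was not called, at 0.37 ± 0.40, adjusted p = 0.498.

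**Figure D2:**
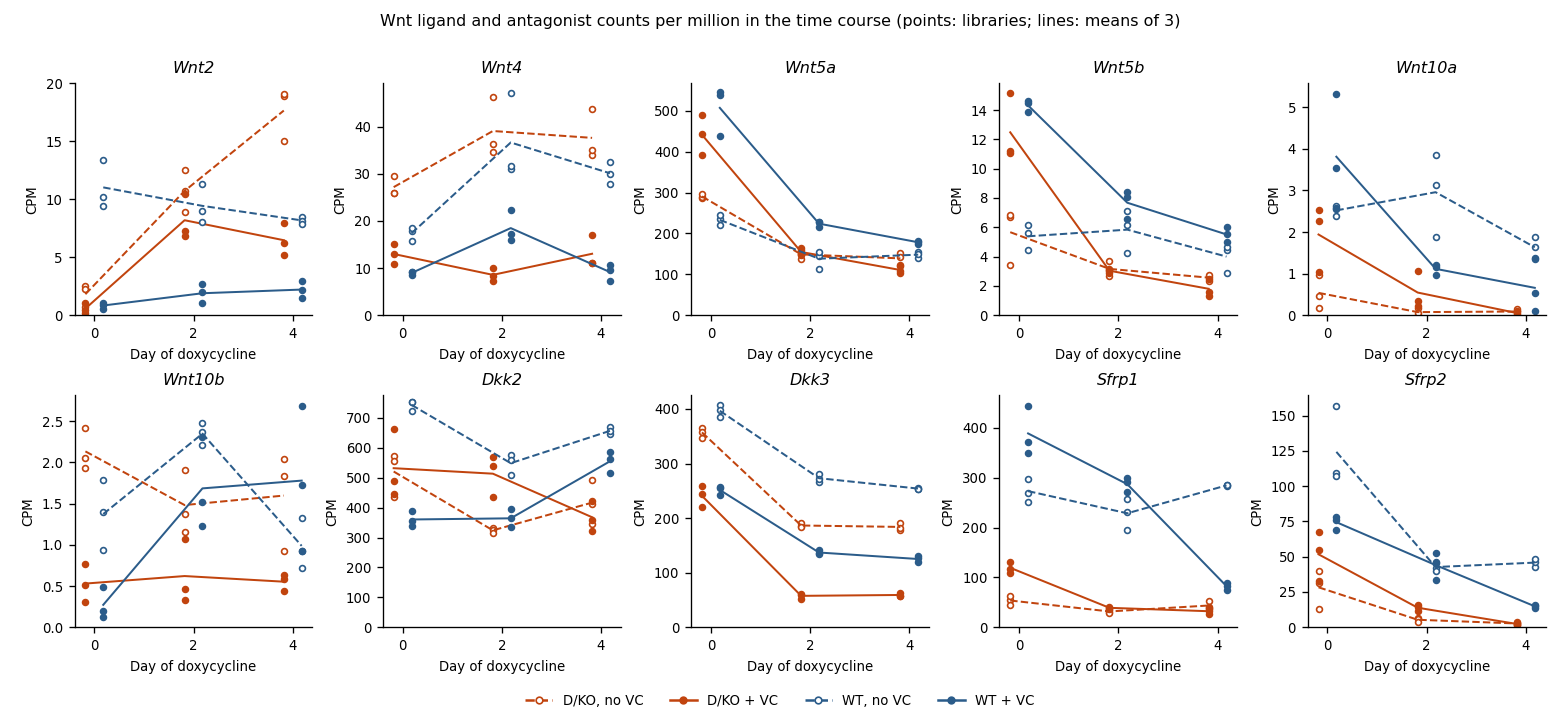
CPM of each gene (y axis from 0) by day of doxycycline; points are libraries, lines join means of 3, open points and dashed lines are without VC, filled points and full lines with VC, red D/KO and blue WT. Wnt2 climbs in D/KO cells to at most 19.1 CPM at day 4 without VC, while Wnt5a, Dkk3 and Sfrp2 end below their day 0 level in all 4 arms.

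Among the antagonists, Sfrp2 (ENSMUSG00000027996, chr3:83673628-83681623, + strand), a Frizzled-related protein of dermal fibroblasts, fell furthest. Its D/KO libraries were at 40.2, 31.6 and 13.2 CPM at day 0, 6.27, 5.92 and 3.76 at day 2 and 2.88, 2.82 and 2.32 at day 4, a 10.6-fold decrease (log2 fold change -3.40 ± 0.31, adjusted p = 1.63e-11). With VC they were at 54.8, 67.9 and 32.5 CPM at day 0 and 3.44, 1.62 and 1.95 at day 4, 22.01-fold lower (log2 fold change -4.46 ± 0.31, adjusted p = 1.11e-14). All 3 day 0 libraries of D/KO cells, though spread from 13.2 to 40.2 CPM, stood above every later library without VC. In WT cells Sfrp2 went from 157, 109 and 107 to 42.6, 46.5 and 48.4 CPM without VC (log2 fold change -1.44 ± 0.24, adjusted p = 1.93e-05) and from 77.9, 76.4 and 69.2 to 14.9, 13.8 and 15.8 with VC (log2 fold change -2.33 ± 0.26, adjusted p = 2.41e-09). Sfrp2 shares 484 bases, 22.5% of its length, with the antisense lncRNA Gm26771, which had 0 to 12 counts per library, at most 10.3% of the Sfrp2 count in the time course and up to 100% in the inhibitor table, where Sfrp2 itself had 1 count.

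Sfrp1 (ENSMUSG00000031548, chr8:23901518-23939648, + strand), the other Frizzled-related member, fell at day 4 in the arms with VC. In D/KO cells with VC it went from 118, 109 and 131 to 38.2, 32.3 and 26.1 CPM (log2 fold change -1.89 ± 0.14, adjusted p = 2.41e-14) and in WT cells from 372, 445 and 350 to 82.2, 75.7 and 89.5 (log2 fold change -2.24 ± 0.13, adjusted p = 4.58e-16). In WT cells without VC the day 4 libraries, at 285, 283 and 286 CPM, lay within the range of the day 0 libraries, at 298, 252 and 269 (log2 fold change 0.06 ± 0.13, adjusted p = 0.785). In D/KO cells without VC Sfrp1 was lower at day 2 (log2 fold change -0.76 ± 0.13, adjusted p = 3.31e-05) and not called at day 4 (log2 fold change -0.30 ± 0.13, adjusted p = 0.0764), though called there without the day 0 library 3 (-0.42, adjusted p = 0.017) or the day 4 library 1 (-0.46, adjusted p = 0.0104).

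Dkk3 (ENSMUSG00000030772, chr7:111715224-111758264, - strand), a divergent Dickkopf protein, was lower at day 4 in every arm, with little spread between libraries. The D/KO libraries went from 348, 366 and 358 to 191, 179 and 182 CPM without VC (log2 fold change -0.96 ± 0.077, adjusted p = 8.83e-13) and from 243, 259 and 220 to 62.7, 58.1 and 56.7 with VC (log2 fold change -2.03 ± 0.08, adjusted p = 1.24e-21). The day 2 libraries were at 185, 191 and 183 CPM without and 61.5, 59.6 and 51.6 with VC, close to the day 4 values. In WT cells it fell to 254, 255 and 253 CPM without VC and 126, 119 and 130 with VC, log2 fold changes of -0.64 ± 0.076 and -1.01 ± 0.077.

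Dkk2 (ENSMUSG00000028031, chr3:131791053-131886065, + strand), which binds Lrp co-receptors, had the narrowest range of group means in the time course, 2.29-fold from the highest to the lowest. The D/KO level was 574, 554 and 435 CPM at day 0, 331, 326 and 316 at day 2 (log2 fold change -0.68 ± 0.13, adjusted p = 8.13e-05) and 413, 345 and 493 at day 4, where the groups overlapped (log2 fold change -0.32 ± 0.13, adjusted p = 0.0481). The day 4 call ended without any 1 of 4 libraries (day 0 libraries 1 and 2, day 4 libraries 1 and 2), with an adjusted p of up to 0.277. With VC it fell in D/KO cells (log2 fold change -0.53 ± 0.13, adjusted p = 0.000688) and rose in WT cells, from 356, 387 and 338 to 586, 517 and 562 CPM (log2 fold change 0.62 ± 0.13, adjusted p = 0.000161), which against WT day 0 without VC was a log2 fold change of -0.42.

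In WT cells fewer members were called without VC than with it. At day 2, 1 rose and 4 fell, against 10.6% of all genes, and at day 4, 1 rose and 3 fell, against 24.5%. The day 2 call of Dkk2 (-0.44) ended in 4 of 6 fits that left out 1 library (adjusted p up to 0.11). With VC, 3 rose and 6 fell at both days, against 27.5% at day 2 and 44.7% at day 4. The difference between the arms was tested gene by gene as the change to day 4 with VC minus that without VC. This equals the VC effect at day 4 minus that at day 0, so it takes in the day 0 effect with opposite sign. In D/KO cells 4 members were lower in that difference, against 26.9% of all genes: Wnt5a (-0.93), Wnt5b (-1.64), Dkk3 (-1.07) and Sfrp1 (-1.59). In WT cells 3 were higher (Wnt2, 1.81, Wnt10b, 3.14, and Dkk2, 0.80) and 5 lower, against 15.3%, the lowest being Sfrp1 (-2.30 ± 0.18 on the log2 scale, adjusted p = 1.9e-11). Of those 5, Wnt4 (-0.76 ± 0.26) and Wnt5b (-0.95 ± 0.32) were each not called in 9 of 12 fits that left out 1 library (adjusted p up to 0.141 and 0.115), and Dkk3 (-0.37 ± 0.11) not without the WT day 4+VC library 2 (-0.33, adjusted p = 0.0576). Wnt10b was at 3.88, adjusted p = 0.000493 without the WT day 0+VC library 2. In WT cells the VC effects at day 4 and at day 0 were 0.85 (not called) and -2.30 for Wnt10b on the log2 scale. They were -1.89 and -3.69 for Wnt2 and -1.79 and 0.51 for Sfrp1. In D/KO cells they were -0.50 (not called) and 1.14 for Wnt5b, and -1.64 and -0.57 for Dkk3.

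The VC arm was also set against day 0 without VC, which takes in the effect of VC itself. Against that baseline the D/KO day 4+VC level was lower in 9 of the 10 members and higher in Wnt2. Each was called, but the share of all genes called against that baseline is not given here, so the count cannot be weighed. For Wnt5a the log2 fold change was then -1.39 in D/KO cells and -0.39 in WT cells, and for Sfrp1 -0.74 and -1.73. Wnt2 in D/KO cells was at 1.84, Wnt5b at -1.64, Dkk2 at -0.50, Dkk3 at -2.59, Wnt10a at -3.14 and Sfrp2 at -3.59. In WT cells at day 2+VC the calls of Wnt4 (0.089), Wnt5a (-0.059), Wnt5b (0.51), Wnt10a (-1.17), Wnt10b (0.29) and Sfrp1 (0.072) ended. Wnt2 turned to -2.53 there, and Dkk2 was called lower (-1.03).

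Markers of other cell types moved in the same libraries. The summed CPM of 9 keratinocyte markers was 4.82 to 6.54 in D/KO day 0+VC cells and 343 to 474 at day 4+VC, and in WT cells 3.93 to 4.61 and 14.9 to 16.1. The 10 fibroblast markers summed to 184482 to 254249 CPM in D/KO day 0+VC cells and to 33325 to 34500 at day 4+VC, and in WT cells to 156543 to 172185 and 61364 to 72497. Without VC, the D/KO sums at day 0 and day 4 were 80601 to 119783 and 37651 to 39337 CPM for fibroblast, 2.18 to 3.48 and 45.9 to 62.96 for keratinocyte and 586 to 710 and 327 to 345 for endothelial markers. The WT sums without VC were 52516 to 54272 and 46492 to 48793, 4.31 to 5.85 and 4.196 to 4.88, and 14.6 to 17.3 and 95.3 to 95.7, with Kdr at 0 at day 4. With VC, the endothelial sums at day 0+VC and day 4+VC were 215 to 256 and 383 to 514 CPM in D/KO and 4.73 to 7.08 and 98.1 to 116 in WT cells (Kdr and Emcn at 0 at day 4+VC). Of the 5 endothelial markers, 1 had a mean of at least 1 CPM in each WT group of the time course, and all 5 did in each D/KO group. The 5 endothelial markers summed to 586 to 710 CPM in D/KO and 14.6 to 17.3 in WT cells at day 0, and the 5 leukocyte markers to 6.25 to 9.86 and 68.1 to 131. Keratin 15 was at 0 counts in the D/KO day 4+VC libraries, no endothelial marker was at 0 at day 0 in either line, and Cd3e was the leukocyte marker at 0 in both. Their part in the results was not tested.

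VC alone, without doxycycline, set the ligands apart from each other. In D/KO cells 5 members rose and 4 fell, against 26.1% of all genes called, and in WT cells 3 rose and 6 fell, against 29.4%. Wnt5a and Wnt5b rose and Wnt2, Wnt4 and Wnt10b fell in both lines. In the same libraries the 10 fibroblast markers summed to 80601 to 119783 CPM without and 184482 to 254249 with VC in D/KO cells, and to 52516 to 54272 and 156543 to 172185 in WT cells. The 5 endothelial markers summed to 586 to 710 and 215 to 256 CPM in D/KO and to 14.6 to 17.3 and 4.73 to 7.08 in WT cells, with none at 0. The 4 chondrocyte markers summed to 99.6 to 155 and 20.8 to 34.9 CPM in D/KO and to 81.9 to 88.8 and 29.3 to 37.05 in WT cells, where Acan was at 0. The 4 skeletal muscle markers summed to 20.8 to 34.4 and 4.74 to 9.75 CPM in D/KO and to 1.82 to 3.01 and 8.05 to 11.3 in WT cells, with Myod1, Myog and Pax7 at 0 in all 4 groups. The part of these markers was not tested. Wnt5a gained 1.52-fold in D/KO cells (log2 fold change 0.60 ± 0.10, adjusted p = 2.17e-05) and 2.17-fold in WT cells (log2 fold change 1.12 ± 0.10, adjusted p = 1.37e-10). Wnt5b gained 2.201-fold and 2.66-fold (adjusted p = 0.000144 and 5.03e-06). In WT cells Wnt2 fell 12.9-fold (log2 fold change -3.69 ± 0.35, adjusted p = 2.79e-10), with no overlap between the libraries. In D/KO cells the Wnt2 groups overlapped (log2 fold change -1.62 ± 0.45, adjusted p = 0.00661), and the call ended without the day 0 library 1 (-1.33, adjusted p = 0.0501), while without the day 0+VC library 3 the log2 fold change was -2.36, adjusted p = 0.00167. Wnt4 fell by 2.09-fold and 1.94-fold (adjusted p = 1.9e-05 and 0.000134), and Wnt10b by 3.96-fold and 4.91-fold (adjusted p = 0.00119 and 0.000737). Without the WT day 0+VC library 2, the Wnt10b log2 fold change in WT cells was -3.03, adjusted p = 0.000486. Wnt10a rose in D/KO cells (log2 fold change 1.85 ± 0.59, adjusted p = 0.0176), a call that ended without the day 0 library 2 or 3 or the day 0+VC library 3 (adjusted p up to 0.107), while without the day 0 library 1 the value was 2.55, adjusted p = 0.00726. It was not called in WT cells (log2 fold change 0.59 ± 0.48, adjusted p = 0.383).

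Among the antagonists at day 0, Sfrp1 rose with VC in D/KO (log2 fold change 1.15 ± 0.13, adjusted p = 1.48e-08) and WT cells (log2 fold change 0.51 ± 0.13, adjusted p = 0.00226), and Dkk3 fell in both (log2 fold change -0.57 ± 0.076, adjusted p = 3.17e-07, and log2 fold change -0.66 ± 0.076, adjusted p = 1.88e-08). Sfrp2 rose in D/KO cells (log2 fold change 0.87 ± 0.25, adjusted p = 0.00758) and fell in WT cells (log2 fold change -0.74 ± 0.24, adjusted p = 0.0165). The D/KO libraries overlapped, and that call ended without the day 0 library 3 (0.53, adjusted p = 0.0903) or the day 0+VC library 2 (0.63, adjusted p = 0.0778), as the WT call did without the day 0 library 1 (-0.54, adjusted p = 0.13) or the day 0+VC library 3 (-0.69, adjusted p = 0.0668). Dkk2 fell 2.06-fold in WT cells (log2 fold change -1.04 ± 0.13, adjusted p = 7.74e-08) and was not called in D/KO cells, where the log2 fold change had a 95% interval of -0.23 to 0.29.

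Whether the lines differed in this VC effect was tested in a comparison chosen after the values were seen. The D/KO minus WT difference was higher for 4 members and lower for 1, against 15.3% of all genes. It was 1.08 ± 0.18 on the log2 scale for Dkk2 (adjusted p = 8.49e-05), 1.61 ± 0.34 for Sfrp2 (adjusted p = 0.00121), 2.07 ± 0.63 for Wnt2 (adjusted p = 0.0219), 0.64 ± 0.18 for Sfrp1 (adjusted p = 0.014) and -0.52 ± 0.15 for Wnt5a (adjusted p = 0.0131). The Wnt2 call ended without the D/KO day 0 library 3 (1.68, adjusted p = 0.0559), the D/KO day 0+VC library 3 (1.34, adjusted p = 0.279) or the WT day 0+VC library 3 (1.84, adjusted p = 0.0654). That of Sfrp1 ended without the D/KO day 0 library 3 (0.52, adjusted p = 0.0647) or the WT day 0+VC library 3 (0.57, adjusted p = 0.0527), and that of Wnt5a without the D/KO day 0+VC library 1 (-0.44, adjusted p = 0.0605).

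At both later days Wnt4 and Dkk3 were lower with VC in each line. Wnt4 was lower with VC by 4.56-fold at day 2 and 2.88-fold at day 4 in D/KO cells (adjusted p = 1.85e-11 and 1.4e-08), and by 1.98-fold and 3.29-fold in WT cells (adjusted p = 4.43e-05 and 4.07e-09). Dkk3 was lower by 3.24-fold and 3.11-fold in D/KO and by 1.99-fold and 2.03-fold in WT cells. At day 2 in D/KO cells 3 members were higher and 3 lower with VC, against 25.3% of all genes, and at day 4 these were 0 and 6, against 34.5%. In WT cells 1 was higher and 5 lower at day 2, against 26.6%, and 0 higher and 5 lower at day 4, against 22.4%. The WT day 2 call of Wnt10a (-1.40) ended in 5 of 6 fits that left out 1 library (adjusted p up to 0.153). Beside these, without and with VC, the day 4 chondrocyte markers summed to 118 to 135 (Acan at 0) and 13.04 to 15.2 CPM in D/KO and to 124 to 133 and 19.4 to 23.7 in WT cells (Acan at 0 in both). The keratinocyte markers at day 4 summed to 45.9 to 62.96 and 343 to 474 CPM in D/KO (Krt15 at 0 with VC) and to 4.196 to 4.88 and 14.9 to 16.1 in WT cells (Krt15 and Dsg3 at 0 in both). Fibroblast markers at day 4 summed to 37651 to 39337 and 33325 to 34500 CPM in D/KO and to 46492 to 48793 and 61364 to 72497 in WT cells. At day 2, none of the 4 lists overlapped between the arms in either line: in D/KO cells the sums without and with VC were 51612 to 53982 and 69190 to 69517 CPM for fibroblast, 97.5 to 111 and 26.7 to 30.05 for chondrocyte, 16.7 to 24.3 and 112 to 131 for keratinocyte and 467 to 547 and 198 to 222 for endothelial markers. The WT sums at day 2 were 49266 to 67697 and 82311 to 93069, 95.1 to 109 and 58.99 to 63.4, 5.55 to 7.71 and 15.8 to 16.9, and 61.7 to 66.5 and 94.7 to 102 CPM in the same order. Skeletal muscle markers (Myod1 and Myog at 0) summed to 14.5 to 23.1 and 2.74 to 4.62 CPM at day 2 in D/KO cells. In WT cells they moved the other way, at 4.06 to 4.47 and 7.72 to 10.9. At day 4 these sums were 11.2 to 14.03 and 1.69 to 3.18 in D/KO, and 4.09 to 6.62 and 6.75 to 10.98 in WT cells. Leukocyte markers (Cd3e at 0) summed at day 4 to 4.32 to 5.43 and 2.12 to 2.33 in D/KO, and 47.5 to 62.1 and 39.7 to 41.9 in WT cells. Their part was not tested. At day 4 Sfrp1 was 3.45-fold lower with VC in WT cells (log2 fold change -1.79 ± 0.13, adjusted p = 9.99e-13) and 1.35-fold lower in D/KO cells (log2 fold change -0.44 ± 0.13, adjusted p = 0.0101). Wnt10a and Wnt10b, the low-count ligands, moved apart at day 2 in D/KO cells: Wnt10a had 28 counts with VC and 4 without (ratio 7.13, 95% counting interval 2.49 to 28.0, log2 fold change 2.73 ± 0.90, adjusted p = 0.0229) and Wnt10b was lower with VC (log2 fold change -1.26 ± 0.45, adjusted p = 0.0365). Each of these calls ended in fits that left out 1 library, in 3 of 6 for Wnt10a (adjusted p up to 0.234) and in 4 of 6 for Wnt10b (up to 0.185). The Wnt10a value was 1.82, adjusted p = 0.234, without the day 2+VC library 2, and 3.96, adjusted p = 0.0189, without the day 2 library 1. That of Wnt10b was -1.88, adjusted p = 0.00896, without the day 2+VC library 2. The Sfrp1 call at day 4 in D/KO cells ended without the day 4 library 1 (-0.28, adjusted p = 0.142) or the day 4+VC library 3 (-0.31, adjusted p = 0.0992).

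**Figure D3:**
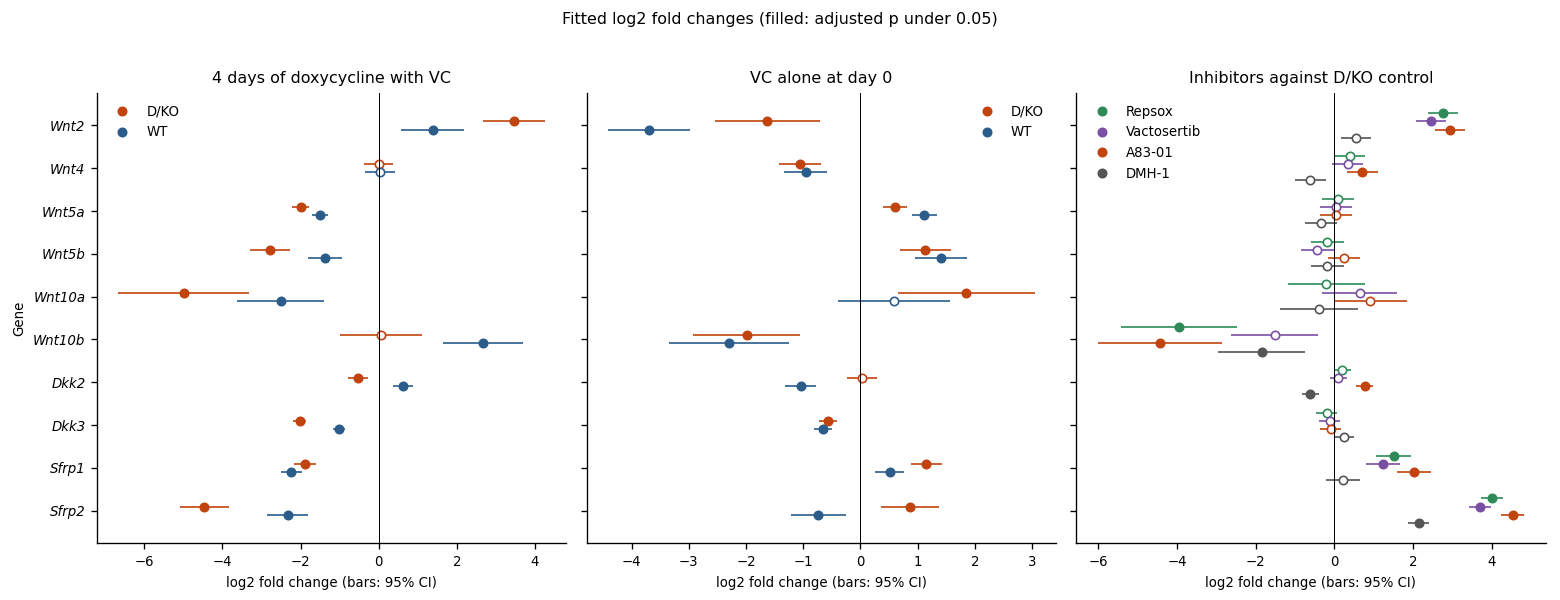
Fitted log2 fold changes of the 10 genes with 95% intervals, for day 4+VC against day 0+VC (left), VC against no VC at day 0 (middle) and each inhibitor against D/KO control (right); filled points passed an adjusted p of 0.05. Wnt2 lies far to the right of zero and Sfrp2 far to the left in the first panel (3.46 and -4.46 in D/KO cells) and are both high with the inhibitors that act on ALK5 in the last panel (2.94 and 4.53 with A83-01).

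The D/KO and WT lines differed in these genes before doxycycline. At day 0, 2 members were higher and 5 lower in D/KO cells, against 43.2% of all genes. In the same libraries the endothelial markers summed to 586 to 710 CPM in D/KO and 14.6 to 17.3 in WT cells, the leukocyte markers to 6.25 to 9.86 and 68.1 to 131, the skeletal muscle markers to 20.8 to 34.4 and 1.82 to 3.01 (Myod1, Myog and Pax7 at 0 in both), the fibroblast markers to 80601 to 119783 and 52516 to 54272 and the chondrocyte markers to 99.6 to 155 and 81.9 to 88.8, and their part was not tested. Sfrp1 was 5.09-fold lower, with 55.1, 61.9 and 44.02 CPM in D/KO and 298, 252 and 269 in WT cells (log2 fold change -2.35 ± 0.14, adjusted p = 2.11e-16). Wnt2 was 6.09-fold lower (log2 fold change -2.61 ± 0.31, adjusted p = 2.29e-08), Sfrp2 4.39-fold lower (log2 fold change -2.14 ± 0.25, adjusted p = 1.09e-08) and Wnt10a 4.702-fold lower (log2 fold change -2.23 ± 0.57, adjusted p = 0.00184). Without the D/KO day 0 library 1 the Wnt10a log2 fold change was -2.94, adjusted p = 0.000939. Wnt4 was higher (log2 fold change 0.64 ± 0.17, adjusted p = 0.00303), as was Wnt5a by 1.25-fold (adjusted p = 0.0126), and Dkk2 was 1.43-fold lower (adjusted p = 0.00149).

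The change to day 4 itself differed between the lines for some members. Without VC, 1 was higher and 2 lower in the D/KO minus WT difference, against 14.3% of all genes. For Wnt2 the difference was 3.71 ± 0.41 on the log2 scale (adjusted p = 3.17e-08) and for Sfrp2 -1.96 ± 0.39 (adjusted p = 0.000414). That of Dkk3, -0.32 ± 0.11 (adjusted p = 0.0436), lost its call in 10 of 12 fits that left out 1 library, with an adjusted p of up to 0.0943. With VC, 1 was higher and 6 lower, against 29.4%. The higher one was Wnt2 (2.08 ± 0.60, adjusted p = 0.00785), at 2.81, adjusted p = 0.00187 without the D/KO day 0+VC library 3. The lower ones were Wnt10b (-2.61 ± 0.74, adjusted p = 0.00694), at -3.35, adjusted p = 0.00252 without the WT day 0+VC library 2, Wnt5a (-0.49 ± 0.15, adjusted p = 0.0104), Wnt5b (-1.41 ± 0.33, adjusted p = 0.00128), Sfrp2 (-2.13 ± 0.40, adjusted p = 9.27e-05), Dkk2 (-1.15 ± 0.18, adjusted p = 8.15e-06) and Dkk3 (-1.02 ± 0.11, adjusted p = 6.2e-09). Sfrp1, which fell in both lines, had a difference of 0.35 ± 0.18 with a 95% interval of -0.027 to 0.72 (adjusted p = 0.159). This difference and that of the VC effect at day 0 share the day 0+VC libraries, with opposite sign. With day 0 without VC as the baseline, the difference in the change to day 4+VC was no longer called for Dkk2 (-0.079 ± 0.18, adjusted p = 0.822) or Sfrp2 (-0.53 ± 0.40, adjusted p = 0.397) and was called higher for Sfrp1 (0.99 ± 0.19, adjusted p = 0.000123). It was 4.15 for Wnt2, -1.01 for Wnt5a, -1.68 for Wnt5b, -2.30 for Wnt10b and -0.93 for Dkk3, all 5 called in the same direction as before.

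The 3 inhibitors that act on ALK5 raised both Sfrp genes and Wnt2 in D/KO fibroblasts, and DMH-1 raised Sfrp2. Of the 15652 genes tested in that table, 20.7% were called with Repsox, 18.1% with Vactosertib, 27.5% with A83-01 and 7.25% with DMH-1. Of the 10 members, 3 rose and 1 fell with Repsox, 3 rose and 0 fell with Vactosertib, 5 rose and 1 fell with A83-01, and 1 rose and 2 fell with DMH-1. The 4 comparisons share their control libraries. The 10 fibroblast markers summed to 79951 to 85328 CPM in control libraries, 41015 to 48749 with Repsox, 49596 to 53103 with Vactosertib, 42837 to 45543 with A83-01 and 69086 to 86650 with DMH-1, which alone overlapped the controls. The 5 endothelial markers, none of them at 0, summed to 290 to 332 CPM in controls and 141 to 181 with A83-01. They overlapped the controls with Repsox (229 to 374), Vactosertib (264 to 337) and DMH-1 (319 to 411). The 4 chondrocyte markers summed to 61.4 to 73.03 CPM in controls, 26.7 to 33.9 with DMH-1 and 77.5 to 83.7 with A83-01 (Acan at 0), and overlapped the controls with Repsox and Vactosertib. The 4 skeletal muscle markers, with Myod1, Myog and Pax7 at 0, summed to 10.2 to 12.6 CPM in controls, 6.27 to 6.74 with DMH-1, 6.37 to 7.62 with Vactosertib and 5.99 to 7.27 with A83-01. With Repsox they overlapped the controls (6.63 to 10.7, Pax7 at 0 and 1 of the 4 with a mean of at least 1 CPM). The 5 leukocyte markers, with Cd3e at 0, summed to 6.61 to 10.3 CPM in controls, 12.3 to 22.7 with Repsox, 11.4 to 24.3 with Vactosertib, 12.7 to 18.5 with A83-01 and 7.21 to 9.52 with DMH-1. Their part in the results was not tested.

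Sfrp2 showed the largest increase with each inhibitor. Its libraries were at 20.95, 24.4 and 26.3 CPM in control cells, 386, 407 and 362 with Repsox, 330, 337 and 265 with Vactosertib, 559, 543 and 556 with A83-01 and 122, 103 and 92.8 with DMH-1. The lowest treated library stood above the highest control library with each inhibitor. The increases were 16.1-fold with Repsox (log2 fold change 4.01 ± 0.14, adjusted p = 1.2e-13), 13.03-fold with Vactosertib (log2 fold change 3.70 ± 0.14, adjusted p = 4.46e-13), 23.2-fold with A83-01 (log2 fold change 4.53 ± 0.14, adjusted p = 6.46e-15) and 4.44-fold with DMH-1 (log2 fold change 2.15 ± 0.13, adjusted p = 2.56e-09).

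Sfrp1 rose from 102, 122 and 136 CPM to 357, 260 and 410 with Repsox (log2 fold change 1.51 ± 0.21, adjusted p = 1.61e-05), 270, 315 and 262 with Vactosertib (log2 fold change 1.23 ± 0.21, adjusted p = 0.000197) and 443, 540 and 485 with A83-01 (log2 fold change 2.03 ± 0.21, adjusted p = 2.5e-07). With DMH-1 it was at 149, 124 and 147 CPM, which overlapped the controls (log2 fold change 0.22 ± 0.20, adjusted p = 0.65).

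Wnt2 went from 4.13, 2.98 and 4.13 CPM to 21.8, 29.98 and 24.6 with Repsox, 20.3, 19.3 and 22.1 with Vactosertib and 29.2, 27.2 and 29.98 with A83-01. These were 6.79-fold (log2 fold change 2.76 ± 0.19, adjusted p = 9.17e-10), 5.49-fold (log2 fold change 2.46 ± 0.19, adjusted p = 6.78e-09) and 7.69-fold (log2 fold change 2.94 ± 0.19, adjusted p = 2.04e-10) increases. With DMH-1 all 3 libraries, at 5.95, 5.17 and 5.33 CPM, lay above the controls, but the change was not called (log2 fold change 0.55 ± 0.19, adjusted p = 0.0795).

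Wnt10b fell to almost no counts with Repsox and A83-01. The control libraries held 17, 12 and 11 counts, the Repsox libraries 2, 0 and 1 and the A83-01 libraries 0, 0 and 2. The ratio to control was 0.0569 with Repsox (95% counting interval 0.0113 to 0.179; log2 fold change -3.96 ± 0.71, adjusted p = 0.000303) and 0.0384 with A83-01 (0.0045 to 0.148; log2 fold change -4.44 ± 0.76, adjusted p = 0.000119). The fitted value moved to -4.80, adjusted p = 0.000826 without the Repsox library 1 and to -6.98, adjusted p = 0.000187 without the A83-01 library 3. With Vactosertib Wnt10b held 1, 7 and 7 counts (log2 fold change -1.52 ± 0.53, adjusted p = 0.0531), and was called without the Vactosertib library 3 (-1.94, adjusted p = 0.046). With DMH-1 it held 9, 4 and 2 counts (log2 fold change -1.85 ± 0.53, adjusted p = 0.0363), a call that ended in 5 of 6 fits that left out 1 library (adjusted p up to 0.155) and stood at -2.44, adjusted p = 0.0338, without the DMH-1 library 1.

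Dkk2 moved in opposite directions with the inhibitors given at 1 µM, to 805, 767 and 748 CPM with A83-01 and 267, 291 and 334 with DMH-1 from 430, 457 and 472 in controls (log2 fold change 0.77 ± 0.11, adjusted p = 1.06e-05, and log2 fold change -0.61 ± 0.11, adjusted p = 0.0009). Wnt4 rose with A83-01 (log2 fold change 0.72 ± 0.19, adjusted p = 0.00562) and was lower but not called with DMH-1 (log2 fold change -0.61 ± 0.19, adjusted p = 0.0519), though called without the DMH-1 library 3 (-0.72, adjusted p = 0.0483). Wnt5a, Wnt5b, Wnt10a and Dkk3 were called with none of the 4 inhibitors. Their log2 fold changes ran from -0.43 (Wnt5b with Vactosertib) to 0.92 (Wnt10a with A83-01), and Wnt10a with A83-01 was called without the control library 1 (1.61, adjusted p = 0.0258).

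**Figure D4:**
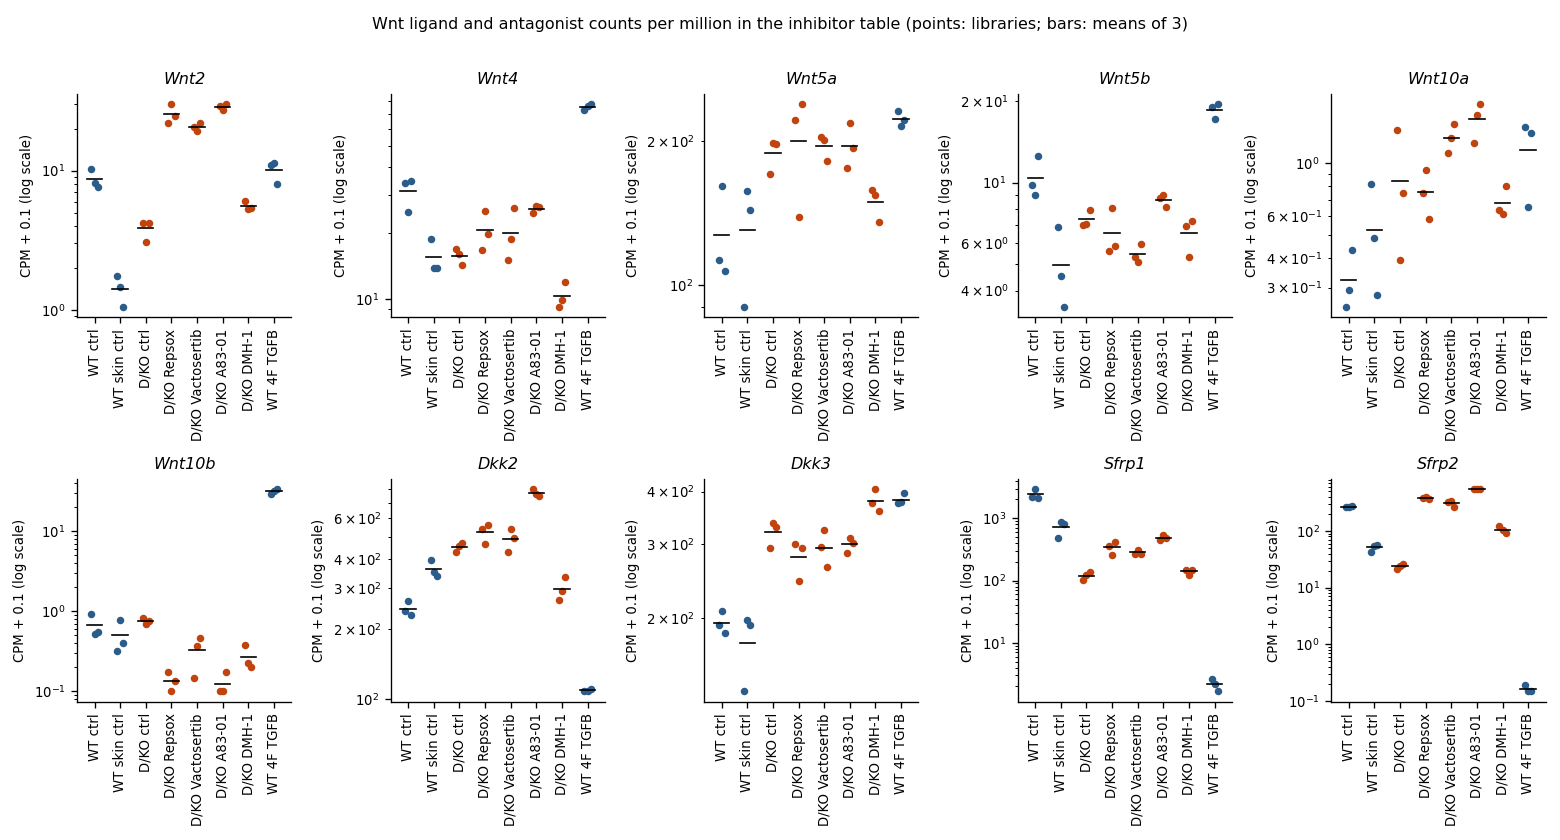
CPM plus 0.1 on a log scale in each group of the inhibitor table; points are libraries, bars means of 3, red D/KO and blue WT. Sfrp2 rises from 21.0 to 26.3 CPM in D/KO control to 543 to 559 with A83-01, and the TGFB-labelled cells at the right are lowest in Sfrp1, Sfrp2 and Dkk2 and highest in Wnt4 and Wnt10b.

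Compounds were compared directly where the dose was the same, which gave 2 pairs. A83-01, which acts on ALK5, was called higher than DMH-1, which acts on ALK2, in 6 of the 10 members and lower in 0, against 20.5% of all genes. Dkk3 (-0.34 ± 0.12, adjusted p = 0.056) and Wnt10b were lower with A83-01 without being called. The differences were 2.38 ± 0.13 on the log2 scale for Sfrp2 (adjusted p = 4.43e-11), 2.39 ± 0.18 for Wnt2 (adjusted p = 4.07e-09), 1.80 ± 0.21 for Sfrp1 (adjusted p = 1.75e-06), 1.38 ± 0.11 for Dkk2 (adjusted p = 7.98e-09) and 1.33 ± 0.19 for Wnt4 (adjusted p = 1.97e-05). Wnt10a was also called (1.30 ± 0.45, adjusted p = 0.0448), but without any 1 of the 6 libraries it was not (adjusted p up to 0.135). Wnt10b, with 2 and 15 counts in all (ratio 0.14, 95% counting interval 0.0156 to 0.603), had a difference of -2.59 ± 0.93 (adjusted p = 0.0529) and was called without the A83-01 library 3 (-5.13, adjusted p = 0.0218).

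Repsox and Vactosertib, both at 0.1 µM, gave no called difference in the members. No gene at all was called between them by edgeR (0.0% of 15652), with 347 at an unadjusted p under 0.05, and DESeq2 called 6. The interval of the difference was 0.052 to 0.56 on the log2 scale for Sfrp2, with all Repsox libraries above all Vactosertib libraries, -0.15 to 0.70 for Sfrp1 and -0.044 to 0.66 for Wnt2. For Wnt10b, with 3 counts with Repsox and 15 with Vactosertib (ratio 0.166, 95% counting interval 0.0308 to 0.586), the interval was -4.21 to -0.66. Sfrp2 and Wnt10b were the 2 members with an unadjusted p under 0.05.

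Between genotypes in the inhibitor table, D/KO controls stood far below WT controls in both Sfrp genes. Sfrp1 was at 2161, 2977 and 2143 CPM in WT controls, 20.2-fold above D/KO controls (log2 fold change -4.34 ± 0.23, adjusted p = 7.97e-12). Sfrp2 was at 261, 263 and 280 CPM, 11.2-fold above (log2 fold change -3.49 ± 0.14, adjusted p = 4.6e-14). Both values are D/KO minus WT. With A83-01, Sfrp2 in D/KO cells thus stood above the WT control range and Sfrp1 stayed below it. In all, 4 members were higher and 5 lower in D/KO controls, against 34.6% of all genes. The lower ones included Wnt2 (log2 fold change -1.202 ± 0.18, adjusted p = 2.43e-05) and Wnt4 (log2 fold change -0.99 ± 0.19, adjusted p = 0.000259), and the higher ones Dkk2 (log2 fold change 0.89 ± 0.11, adjusted p = 1.17e-06), Dkk3 (log2 fold change 0.72 ± 0.13, adjusted p = 0.000118) and Wnt5a (log2 fold change 0.57 ± 0.20, adjusted p = 0.0284). The calls of Wnt5a, Wnt5b and Wnt10a ended in 4, 5 and 2 of the 6 fits that left out 1 library (adjusted p up to 0.135, 0.228 and 0.18), and Wnt10a was at 1.04, adjusted p = 0.18, without the D/KO control library 1. The mice differed in age (4 against 14 weeks) as well as genotype, and these cannot be told apart. The endothelial markers summed to 290 to 332 CPM in D/KO and 73.4 to 91.2 in WT controls, with none at 0. The keratinocyte markers summed to 2.05 to 3.72 and 14.8 to 17.7 CPM (4 of 9 at 0 in each, Krt14, Krt1 and Dsg3 in both), the chondrocyte markers to 61.4 to 73.03 and 138 to 144 with none at 0, and the skeletal muscle markers to 10.2 to 12.6 and 2.09 to 3.76 (Myod1 and Pax7 at 0 in both, and 1 of 4 with a mean of at least 1 CPM in each). The fibroblast markers summed to 79951 to 85328 CPM in D/KO and 90760 to 92588 in WT controls. The leukocyte markers summed to 6.61 to 10.3 and 4.19 to 6.56 (Cd3e at 0 in both) and the 4 melanocyte markers to 1.23 to 1.76 and 3.58 to 4.38 (Tyr at 0 in both). None of these overlapped, and their part was not tested. Between this comparison and that of D/KO with WT at day 0 of the time course, where other lines and ages were compared, 3 members changed sign while called in both. Wnt4 was lower in D/KO here and higher there, and Dkk2 (0.89 here, -0.51 at day 0) and Wnt10a (1.73 here, -2.23 at day 0) were higher here and lower there.

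Skin fibroblasts of WT mice differed from tail tip fibroblasts in 6 members, 1 higher and 5 lower, against 34.2% of all genes. Wnt2 was 6.42-fold lower, at 1.65, 1.36 and 0.9497 CPM in skin and 10.2, 8.06 and 7.58 in tail tip (log2 fold change -2.68 ± 0.20, adjusted p = 2.31e-09). Sfrp2 was 5.203-fold lower (log2 fold change -2.38 ± 0.13, adjusted p = 1.86e-11) and Sfrp1 3.38-fold lower (log2 fold change -1.76 ± 0.21, adjusted p = 1.2e-06). Wnt4 (log2 fold change -1.01 ± 0.19, adjusted p = 0.000211) and Wnt5b (log2 fold change -1.08 ± 0.20, adjusted p = 0.000253) were also lower, and Dkk2 was higher (log2 fold change 0.56 ± 0.11, adjusted p = 0.000289). Beside these, the 4 skeletal muscle markers summed to 57.4 to 84.1 CPM in skin (Pax7 at 0) and 2.09 to 3.76 in tail tip (Myod1 and Pax7 at 0), the 5 endothelial markers to 167 to 241 and 73.4 to 91.2, and the 4 chondrocyte markers to 64.4 to 86.5 and 138 to 144, the last 2 lists with none at 0. In skin as in tail tip, 1 of the 4 skeletal muscle markers had a mean of at least 1 CPM. The 9 keratinocyte markers summed to 3.27 to 4.42 CPM in skin (Krt14, Krt15 and Dsg3 at 0) and 14.8 to 17.7 in tail tip (Krt5, Krt14, Krt1 and Dsg3 at 0). Their part was not tested. The skin library 1 had the lowest Sfrp1, at 478 CPM against 858 and 817 in the other 2.

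The TGFB-labelled 4FJ_(+/-)_OCT4-GFP fibroblasts have no control of their own line in the same table, so their levels are given without a test. Sfrp2 was near absent, with 2, 1 and 1 counts per library, at which its antisense neighbour Gm26771 had as many counts as Sfrp2 in a library, and Sfrp1 was at 2.502, 2.12 and 1.56 CPM. Dkk2 was at 108, 107 and 111 CPM, the lowest of the 8 groups. Wnt10b was at 28.6, 31.8 and 33.7 CPM, above every other library of either table, and Wnt4 at 73.000, 75.8 and 77.4, also above all others. At day 0 of the time course, in a table scaled separately, the same line had 298, 252 and 269 CPM of Sfrp1, 157, 109 and 107 of Sfrp2 and 0.939, 1.396 and 1.79 of Wnt10b. The 5 endothelial markers summed to 1.198 to 1.88 CPM in the TGFB-labelled libraries, to 73.4 to 91.2 in WT controls and to 14.6 to 17.3 at day 0 of the same line, with none at 0. Of the 5, 0 had a mean of at least 1 CPM in the TGFB-labelled libraries, 5 in WT controls and 1 at day 0. Against the same day 0 libraries, the leukocyte markers summed to 14.8 to 18.2 CPM beside 68.1 to 131 (Cd3e at 0 in both), the chondrocyte markers to 22.3 to 27.8 beside 81.9 to 88.8 (Acan at 0 at day 0) and the skeletal muscle markers to 13.7 to 16.1 (Myod1 at 0, and 1 of 4 with a mean of at least 1 CPM) beside 1.82 to 3.01 (Myod1, Myog and Pax7 at 0). Their part in these levels was not tested.

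Other genes of the pathway were read from lists chosen with earlier results of these data known. In D/KO day 4+VC cells against day 0+VC, 8 of 13 other Wnt ligands passed the filter, of which 3 rose and 5 fell, and of 8 tested antagonists 3 rose and 4 fell, where 54.1% of all genes were called. Of 21 tested receptors and co-receptors 3 rose and 9 fell, and of 7 feedback targets 2 rose and 3 fell. The largest called changes in these lists were those of Wnt9b, a canonical ligand with 0 counts in all day 0+VC libraries and 737 in the day 4+VC libraries (at least 189-fold higher with a floor of 3 counts over the group, and 153-fold at the lower 95% counting limit), Draxin (log2 fold change -4.54 ± 0.40, adjusted p = 4.98e-12), the receptor Lgr5 (log2 fold change -3.99 ± 0.25, adjusted p = 9.54e-16) and the TCF factor Tcf7 (log2 fold change 2.87 ± 0.27, adjusted p = 1.94e-11). Of the 5 agonists Rspo2 and Rspo3 fell, Rspo2 most (log2 fold change -3.15 ± 0.30, adjusted p = 4.48e-11), and the Wnt carrier Wls fell (log2 fold change -0.75 ± 0.082, adjusted p = 8.75e-10).

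With VC at day 0 in D/KO cells, where 26.1% of all genes were called, 5 of the 7 feedback targets rose and 1 fell, led by Axin2, a direct beta-catenin target, at log2 fold change 7.04 ± 0.36, adjusted p = 2.1e-17. Of the 8 other ligands tested 1 rose, Wnt9a (log2 fold change 1.25 ± 0.17, adjusted p = 2.77e-07), and both secretion genes rose, Porcn, the enzyme that adds the lipid, more than Wls (log2 fold change 0.79 ± 0.15, adjusted p = 0.000103). Of the agonists 1 rose and 2 fell, Rspo3 most (log2 fold change -2.98 ± 0.25, adjusted p = 1.51e-11). Of 21 receptors 4 rose and 5 fell, Fzd4 most (log2 fold change -2.54 ± 0.19, adjusted p = 5.43e-13). Of 8 antagonists 1 rose and 3 fell. The largest fitted fall among them, that of Sostdc1, a BMP and Wnt antagonist, rests on 10 counts at day 0 and 0 with VC.

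With A83-01, where 27.5% of all genes were called, all 7 feedback targets rose, Nkd1 most (log2 fold change 2.80 ± 0.24, adjusted p = 1.36e-08), and 3 of 5 agonists rose, Rspo2 most (log2 fold change 3.27 ± 0.16, adjusted p = 4.98e-12). Of 7 tested other ligands 3 rose and 1 fell, with Wnt2b the largest (log2 fold change 2.52 ± 0.38, adjusted p = 3.21e-05). Of 7 other antagonists 3 rose and 2 fell. Notum, an enzyme that inactivates Wnt ligands, had 0 counts in the controls and 83 with A83-01 (at least 21.3-fold higher by the same floor, and 16.9-fold at the lower counting limit). Of 20 receptors 4 rose and 5 fell, Lgr5 most (log2 fold change 2.73 ± 0.28, adjusted p = 1.82e-07), and both secretion genes fell, Porcn by the larger amount (log2 fold change -0.54 ± 0.14, adjusted p = 0.00608). With DMH-1, against 7.25% of all genes, 0 of the 7 feedback targets rose and 1 fell. The median log2 fold change of the feedback targets was 1.53 with Repsox, 1.19 with Vactosertib, 1.92 with A83-01 and -0.21 with DMH-1, while the medians over all genes lay between -0.0017 and 0.018.

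The genes whose pattern over the 12 groups of the time course was most like each member were ranked by Pearson's r between group means of log2 CPM, among 11095 genes, as a description over 12 points that share their lines and scaling. For Wnt2 these were Timp3 (r = 0.937) and Btf3l4 (0.918), for Wnt4 Maf1 (0.956) and Ubald2 (0.9503), for Wnt5a Qsox1 (0.961) and Cav1 (0.959), and for Wnt5b Gstm2 (0.984) and Arhgef19 (0.974). For Wnt10a they were Ltbp1 (0.977) and AA414768 (0.973) and for Wnt10b Sh3bp5 (0.831) and Aars2 (0.827). Among antagonists, Dkk2 went with Mier3 (0.882) and Brwd1 (0.868), Dkk3 with Bcl2l11 (0.977) and Mvb12b (0.973), Sfrp1 with Rerg (0.972) and H2-T23 (0.967), and Sfrp2 with Ror2 (0.968), the Wnt5a receptor, and Cdh18 (0.963). The Wnt10b group means, whose neighbours in order of level overlapped in all 11 pairs, had the weakest likeness to any gene. Between members, the highest r was 0.9501, for Wnt10a and Sfrp2, followed by 0.913 for Wnt10a and Sfrp1 and 0.895 for Wnt5a and Wnt5b, and Wnt2 and Wnt5a had one of -0.833.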

How the data were processed

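RNA was sequenced on an Illumina NovaSeq as paired reads. According to the submitters' processing notes and the study's methods, the authors checked and trimmed reads with FastQC and Trim Galore, aligned them to GRCm39 with HISAT2 and counted them per gene with featureCounts of Subread, whose strand setting is not given in the sources used here. The deposited values are raw read counts per gene, in 2 tables of 56980 identifiers, of which 56236 were named from GENCODE M39. Counting reads without molecular identifiers means that intervals cover counting error only.

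The members and all gene lists were chosen with earlier results of these data known. Each table was fitted once with edgeR 4.0.16 (R 4.3.3), with TMM factors, filterByExpr (minimum count 10, total 15), the quasi-likelihood F-test and Benjamini-Hochberg adjustment within each comparison over all genes tested. The common biological coefficient of variation was 0.132 for reprogramming libraries and 0.195 for inhibitor libraries. CPM and TPM were computed here from the counts and the deposited gene lengths. The edgeR step was tested on simulated counts for a single comparison of the reprogramming libraries, D/KO day 4 against day 0. That test did not cover the inhibitor libraries, the differences of changes or changes in low-count genes. All 10 members are named. Of the other pathway genes, the one with the largest called change in each list and each of 3 comparisons is named, and feedback targets are also counted with each inhibitor. Alternatives were DESeq2 1.42.0, other size factors, filters, a fold minimum, another baseline, leaving out single libraries and fits to fewer groups. The D/KO minus WT comparison of the VC effect at day 0 was added after the values were seen.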

Additional observations from a re-analysis of the deposited data

Results flagged for a closer look

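The D/KO and WT lines differed in the change of several members, by the test of the difference itself, and the 2 lines also differ in sex, age and transgene background. In the change to day 4 without VC the D/KO minus WT difference was 3.71 on the log2 scale for Wnt2, -1.96 for Sfrp2 and -0.32 for Dkk3. For the change to day 4+VC it was 2.08 for Wnt2, -0.49 for Wnt5a, -1.41 for Wnt5b, -2.61 for Wnt10b, -1.15 for Dkk2, -1.02 for Dkk3 and -2.13 for Sfrp2. With day 0 without VC as the baseline, that difference was not called for Dkk2 (-0.079) or Sfrp2 (-0.53) and was called for Sfrp1 (0.99), and the other 5 stayed called. Wnt2 was the member whose change was more positive in D/KO cells in both arms. In the effect of VC at day 0, a comparison added after the values were seen, it was 2.07 for Wnt2, -0.52 for Wnt5a, 1.08 for Dkk2, 0.64 for Sfrp1 and 1.61 for Sfrp2, and this comparison shares the day 0+VC libraries with the change to day 4+VC. The adjusted p-values and the libraries on which these calls rest are given with the comparisons above. With 3 libraries a group, single libraries were not tested as outliers.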

How the results depend on the processing

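No paired analysis was possible because the numbers in the sample titles run over a whole table and groups share none of them. In 28 comparisons, 162 of 180 counts of called members under another setting, and 196 of 198 with a library left out, lay within 1.5 times the reported count. DESeq2 kept all 172 called values called, edgeR with DESeq2 size factors 171, and no filter on low counts 167. With a library left out, 1081 called values stayed called and 113 did not. A stricter rule, which also asks for a log2 fold change of 1 or more in size, gave 3 called members in D/KO at day 2 (9 before), 5 at day 4 (8), 2 in WT at day 2 (5), 1 at day 4 (4), 5 at day 2+VC (9), 5 for VC at day 0 in WT (9), 2 for VC at day 2 in WT (6), 4 for D/KO against WT at day 0 (7), 3 for the WT change with VC minus without (8), 3 for D/KO minus WT in the VC effect (5) and 4 for D/KO against WT controls (9). Requiring 10 counts in every library left 5 of 8 at day 4 in D/KO, 2 of 4 with Repsox and 1 of 3 with DMH-1, where fewer members were tested. DMH-1 gave 5 called members with DESeq2 and 5 with only the groups compared (3 reported), and the latter gave 3 for the VC effect difference (5), whose range with a library left out was 3 to 5. Against day 0 without VC in place of day 0+VC, 4 members were called in WT at day 2+VC (9 before), and the log2 fold change changed sign for Wnt2 (WT day 2+VC -2.53, day 4+VC -2.32), Wnt4 (day 4+VC, D/KO -1.06, WT -0.92), Wnt5b (WT day 2+VC 0.51, day 4+VC 0.035), Wnt10a (D/KO day 2+VC 0.029), Wnt10b (D/KO day 2+VC -1.78, day 4+VC -1.93), Dkk2 (WT day 2+VC -1.03, day 4+VC -0.42) and Sfrp1 (WT day 2+VC 0.072), since this baseline adds the VC effect at day 0. Depth limits Wnt10a and Wnt10b, with under 100 counts a library in most groups.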
